A study of Mus musculus with 4 samples.

Results

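The Schlafen genes of the mouse lie side by side on chromosome 11, and 7 of them (Slfn1, Slfn2, Slfn3, Slfn4, Slfn5, Slfn8 and Slfn9) were taken by symbol from the 24346 gene rows of the deposited expression table. RNA was measured in endothelial cells, the lining cells of blood vessels, freshly isolated from hearts of C57BL/6 mice labelled young and purified by flow cytometry. The ECp53KO group holds 2 libraries (ECp53KO_170 and ECp53KO_172) and the Ctrl group, labelled wild type, holds 2 libraries (Ctrl_178 and Ctrl_182). The series title names endothelial p53, so ECp53KO is read as loss of p53 in endothelial cells. The labels name no Cre driver, deleted exons, exact age, or number of mice behind a library, so p-values measure only the spread between these libraries.

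Schlafen proteins are regulators of growth arrest, translation and antiviral defence, and many of their genes are switched on by interferon. The mouse family has short proteins (Slfn1 and Slfn2), intermediate ones (Slfn3 and Slfn4) and long ones with a helicase-like part (Slfn5, Slfn8 and Slfn9). They are best studied in T cells and myeloid cells. Human SLFN11, a long member, blocks stalled replication forks and cleaves transfer RNA.

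Of the 7 genes, 6 were detected and Slfn1 was listed at 0 in all 4 libraries. Heart endothelial cells contained mainly Slfn5, then Slfn2 and Slfn3, in both genotypes. Slfn8 was listed at near 0 in the ECp53KO libraries and above 1 FPKM in the Ctrl libraries, and Slfn9 was 4.56 times higher in Ctrl. Slfn2 was 1.38 times higher in ECp53KO, and Slfn3, Slfn4 and Slfn5 overlapped between the genotypes. None of the 4 members in the test over all genes passed, and that test called few genes of any kind. Slfn8, Slfn4 and Slfn1 were below its minimum level and were not in it.

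FPKM values are fragment counts scaled by transcript length and library size, so levels of different genes can be set side by side. The table gives no counts. From the step size of low values, depth came to about 11400000 fragments for ECp53KO_170 and 9800000 for ECp53KO_172, against 11000000 for Ctrl_178 and 22600000 for Ctrl_182. A single fragment on a 2 kb transcript was then worth between 0.0221 and 0.0509 FPKM.

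The targeted gene was looked at first. Trp53, which encodes p53, was measured at 4.41 and 2.45 FPKM in ECp53KO_170 and ECp53KO_172, against 52.1 and 28.8 FPKM in Ctrl_178 and Ctrl_182. Both ECp53KO libraries were far below both Ctrl libraries, although the difference missed the threshold in the fit over all genes (limma adjusted p = 0.146) and passed it without small RNA loci (limma adjusted p = 0.0123). Endothelial marker genes summed to 5917 to 6366 FPKM in ECp53KO and 5818 to 5908 FPKM in Ctrl, with none of the 10 at 0. Of these genes, 4 were higher and 3 lower in ECp53KO without overlap, where 19.1% of all tested genes were higher and 16.8% lower. Erythroid genes summed to 390 FPKM in ECp53KO_170 and 95.6 FPKM in ECp53KO_172, against 64.4 FPKM in Ctrl_178 and 37.4 FPKM in Ctrl_182. Of the 6, 5 were higher in both ECp53KO libraries without overlap, as were 16.3% of all rows above 0 in a library. The median log2 fold change of the 5 erythroid genes tested was 1.88. Cardiomyocyte genes summed to 167 FPKM in ECp53KO_170 and to 78.1 to 81.7 FPKM in the other libraries.

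Slfn5 was the most abundant member, with a mean level above that of 95.01% of the 11332 genes tested. In human cells SLFN5 is an interferon-induced nuclear repressor of transcription. It was measured at 143 FPKM in ECp53KO_170 and 175 FPKM in ECp53KO_172, against 161 FPKM in Ctrl_178 and 167 FPKM in Ctrl_182. The ECp53KO libraries lay on either side of both Ctrl libraries. The group means were 159 ± 22.4 FPKM in ECp53KO and 164 ± 4.43 FPKM in Ctrl (SD, n = 2 each). The log2 fold change was -0.05 ± 0.18 (SE), with a 95% interval from -0.52 to 0.42 (limma adjusted p = 0.967). Without ECp53KO_170 it was 0.09 (limma adjusted p = 0.962, with the lone ECp53KO library assumed to vary like the Ctrl libraries). Slfn5 made up 68.5% and 69.8% of the summed FPKM of the 7 genes in ECp53KO_170 and ECp53KO_172, against 75.1% and 72.7% in Ctrl_178 and Ctrl_182.

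Slfn2 and Slfn3 came next. Slfn2, which keeps T cells and monocytes quiescent in mice and binds transfer RNA, was measured at 42.1 and 49.3 FPKM in ECp53KO_170 and ECp53KO_172, against 30.3 and 36.1 FPKM in Ctrl_178 and Ctrl_182. Both ECp53KO libraries were above both Ctrl libraries. The means were 45.7 ± 5.12 FPKM in ECp53KO and 33.2 ± 4.11 FPKM in Ctrl (SD, n = 2 each), and the log2 fold change was 0.45 ± 0.17 (SE). The limma p was 0.0480 before adjustment and 0.864 after it. Slfn3, linked in rodents to T cells and to differentiation of the gut epithelium, was measured at 23.3 and 25.4 FPKM in ECp53KO_170 and ECp53KO_172, against 18.6 and 23.6 FPKM in Ctrl_178 and Ctrl_182. The groups overlapped, since Ctrl_182 lay between the ECp53KO libraries. The log2 fold change of Slfn3 was 0.21 ± 0.18 (SE), and its 95% interval ran from -0.25 to 0.66 (limma adjusted p = 0.870). Slfn2 exceeded Slfn3 in every library, by a ratio of 1.81 and 1.94 in ECp53KO_170 and ECp53KO_172, against 1.63 and 1.53 in Ctrl_178 and Ctrl_182.

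**Figure D1:**
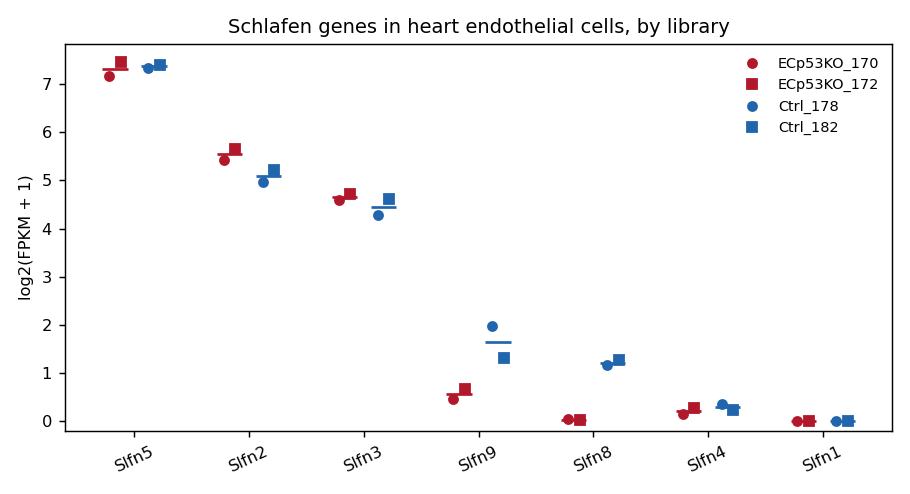
Level of each Schlafen member as log2(FPKM + 1), with ECp53KO libraries in red on the left of each gene, Ctrl libraries in blue on the right, and bars at the group mean of 2 libraries. Slfn5 stands highest, near 7 on this scale, and the genotypes are separated for Slfn2, Slfn9 and Slfn8.

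Slfn9 and Slfn8 are neighbouring long members on the minus strand, related to human SLFN11 and to SLFN13, a nuclease of transfer RNA. Slfn9 was measured at 0.379 and 0.589 FPKM in ECp53KO_170 and ECp53KO_172, against 2.92 and 1.49 FPKM in Ctrl_178 and Ctrl_182. Slfn8 was measured at 0.0283 and 0.0246 FPKM in ECp53KO_170 and ECp53KO_172, against 1.25 and 1.41 FPKM in Ctrl_178 and Ctrl_182. For both genes, each ECp53KO library lay below each Ctrl library. On the longest annotated transcript and at the estimated depths, Slfn8 corresponds to 1.30 fragments in ECp53KO_170 and 0.967 in ECp53KO_172, against 54.8 in Ctrl_178 and 128 in Ctrl_182. A fold against so few fragments is not given. Slfn9 corresponds to 24.98 fragments in ECp53KO_170 and 33.4 in ECp53KO_172, against 185 in Ctrl_178 and 194 in Ctrl_182.

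Slfn9 averaged 0.484 ± 0.149 FPKM in ECp53KO and 2.21 ± 1.01 FPKM in Ctrl (SD, n = 2 each). The log2 fold change of Slfn9 on the log2(FPKM + 1) scale, which understates the change of low genes, was -1.08 ± 0.32 (SE), with a limma p of 0.0179 before adjustment and 0.864 after it. Slfn9 met the minimum mean of 1 FPKM only through its Ctrl level. Slfn8 had a mean below that minimum and was not in the main test. Its difference in mean log2(FPKM + 1) was -1.18 ± 0.09 (SE) in the fit of all 16809 rows above 0 in a library, with a 95% interval from -1.44 to -0.92. The limma p in that fit was 0.000201 before adjustment and 0.218 after it. Leaving out each library in turn moved this difference between -1.23 and -1.13 for Slfn8, and the log2 fold change between -1.41 and -0.75 for Slfn9. Both ECp53KO values of Slfn8 are near 0, and adding 1 holds them together. Leaving out either could thus hardly move the difference, and the narrow range and SE do not show a stable level there. With 0.1 added in place of 1, the difference of Slfn8 was -3.50.

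Slfn4, induced in myeloid cells by inflammation in mice, was near the detection limit. It was measured at 0.111 and 0.204 FPKM in ECp53KO_170 and ECp53KO_172, against 0.277 and 0.180 FPKM in Ctrl_178 and Ctrl_182. The groups overlapped, and these values correspond to between 5.01 and 16.1 fragments. Slfn1, which restrains the growth of thymocytes in mice, was listed at 0 throughout. Relatives outside the set were as low. Slfn10-ps, named as a pseudogene and lying beside Slfn8, was measured at 0.148 and 0.340 FPKM in ECp53KO_170 and ECp53KO_172, against 0.297 and 0.426 FPKM in Ctrl_178 and Ctrl_182. Slfn14, known for ribosome cleavage in rabbit and human cells, was listed at 0 in all 4 libraries. Slfnl1, on chromosome 4, did not exceed 0.180 FPKM.

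The order of the levels was thus Slfn5, Slfn2, Slfn3 and Slfn9 in every library, with no overlap between these neighbours across the 4 libraries. The order below them differed by genotype. Slfn4 exceeded Slfn8 in both ECp53KO libraries, and Slfn8 exceeded Slfn4 in both Ctrl libraries. Within Ctrl, Slfn9 and Slfn8 lay close to each other in Ctrl_182, at a ratio of 1.06, and further apart in Ctrl_178, at 2.35. Levels of different genes were not tested against each other.

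Of the 4 members tested (Slfn2, Slfn3, Slfn5 and Slfn9), 0 passed at a limma adjusted p under 0.05, where 0.115% of all tested genes did. None passed either over all rows above 0 in a library, where 0.0476% did, or without small RNA loci, where 0.063% did. At an unadjusted limma p under 0.05 there were 2 (Slfn2 and Slfn9), where 4.78% of all tested genes were. Slfn9 was among the tested genes only through its Ctrl level, so this count is not read as a result about the family. Of the 6 detected members, 1 was higher (Slfn2) and 2 were lower (Slfn8 and Slfn9) in ECp53KO without overlap. Over all 16809 rows above 0 in a library, 33.6% had no overlap, with 16.3% higher and 17.2% lower. Single genes were given no exact permutation test, whose smallest two-sided p at this group size is 0.333.

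The sequences before the start sites of Slfn9 and Slfn8 are printed because these neighbours were both lower in ECp53KO and had the most alike promoters of the family. That of Slfn5 is printed because it holds the same kind of motif at a gene whose genotypes overlapped. Each is RefSeq's GRCm38.p6 sequence of the 250 bases before a start site, read 5′ to 3′ on the gene's strand. Capitals mark the interferon-stimulated response element, a DNA element found before many interferon-induced genes, searched as GAAANNGAAA on both strands. The Slfn9 window is chr11:82991831-82992080 on the minus strand, the Slfn8 window chr11:83020811-83021060 on the minus strand, and the Slfn5 window chr11:82951852-82952101 on the plus strand.
Slfn9: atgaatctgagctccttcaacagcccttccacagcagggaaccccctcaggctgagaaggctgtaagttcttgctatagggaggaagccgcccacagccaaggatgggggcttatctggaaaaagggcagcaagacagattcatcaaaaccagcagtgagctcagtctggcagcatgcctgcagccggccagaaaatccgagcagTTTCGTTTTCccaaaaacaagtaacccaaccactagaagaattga
Slfn8: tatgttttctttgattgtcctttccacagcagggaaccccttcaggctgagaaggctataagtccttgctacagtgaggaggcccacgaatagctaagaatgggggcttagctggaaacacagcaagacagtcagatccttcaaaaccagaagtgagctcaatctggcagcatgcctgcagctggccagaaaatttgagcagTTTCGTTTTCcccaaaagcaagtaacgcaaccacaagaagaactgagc
Slfn5: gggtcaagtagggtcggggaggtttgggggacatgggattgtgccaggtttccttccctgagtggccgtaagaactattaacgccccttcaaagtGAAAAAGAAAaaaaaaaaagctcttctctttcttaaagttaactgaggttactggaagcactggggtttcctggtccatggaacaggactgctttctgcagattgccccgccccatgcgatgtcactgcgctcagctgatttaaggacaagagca

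All 7 members had a promoter window in the RefSeq table. The Slfn8 and Slfn9 windows were identical at 210 of 262 aligned positions (80.2%), and the next most alike pair, Slfn3 and Slfn8, at 53.4%. The match spans the bases 45 to 36 before the start site of Slfn9 and 48 to 39 before that of Slfn8, with the same letters. Slfn8 has a second window, before another start site, where the match spans the bases 136 to 127. In Slfn5 it spans the bases 155 to 146 before the start site of the printed window and runs into a stretch of A. That window lies inside the annotated gene, which begins at 82951349, so its start site is a later one. No other member's window held it, and 3.99% of the 27025 genes with a window did. For members and all genes alike, the windows searched also held a short stretch after the start site. The gamma-activated site TTCNNNGAA and the p53 half-site, both searched on both strands, were in 0 of the 7 members' windows, where 9.55% of genes held each of them. These matches describe letters and not binding.

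Reads of related members can be shared. With the stated read length of 51 bases, 14.1% of the 51-base stretches of the Slfn8 transcripts and 10.9% of those of Slfn9 occurred in another Schlafen gene, in each other and in Slfn10-ps. For Slfn3 and Slfn4, which share stretches mainly with each other, the shares were 7.04% and 7.80%. For Slfn2 the share was 4.15%, and for Slfn5 it was 0. The sources used here do not say how the authors' counting assigned such reads, so the levels of Slfn8, Slfn9, Slfn3 and Slfn4 are uncertain. These shares do not bound the error of a low gene beside an abundant relative. Slfn3, at 577 to 1513 estimated fragments, shares 7.04% of its stretches with Slfn4, whose whole level was 5.01 to 16.1 fragments.

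**Figure D2:**
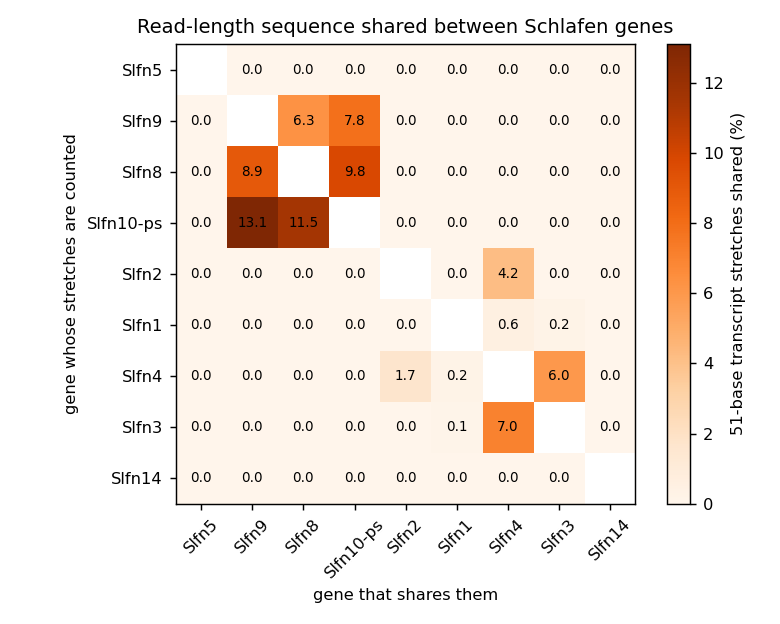
Share in percent of each row gene's 51-base transcript stretches that also occur in the column gene, on either strand, from GENCODE M21 transcripts. Slfn9, Slfn8 and Slfn10-ps form a block with shares of 6.26 to 13.1, Slfn4 shares with Slfn3 and Slfn2, and Slfn5 and Slfn14 share none.

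The family was then set beside its surroundings. The Schlafen genes span 335 kb from Slfn5 to Slfn14 (chromosome 11, 82951349 to 83286726, GRCm38), 13.36 Mb from the end of Trp53. The labels do not say whether the groups also differ in sequence linked to Trp53 on this chromosome. Within 200 kb of the cluster the table holds 24 rows besides the members, 16 of them tested. None (0) passed at a limma adjusted p under 0.05, while 4 had an unadjusted p under 0.05 (Unc45b, Slfn5os, Nle1 and AA465934), and of the tested rows 6 were higher and 3 lower in ECp53KO without overlap. Over all tested genes 19.1% were higher and 16.8% lower in that way, and 4.78% had an unadjusted limma p under 0.05.

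Slfn5os, a noncoding gene antisense to Slfn5, was measured at 22.2 and 39.9 FPKM in ECp53KO_170 and ECp53KO_172, against 67.4 and 77.5 FPKM in Ctrl_178 and Ctrl_182. Unc45b, which encodes a myosin chaperone of muscle, was measured at 23.8 and 35.7 FPKM in ECp53KO_170 and ECp53KO_172, against 68.1 and 69.8 FPKM in Ctrl_178 and Ctrl_182. Both genes were lower in both ECp53KO libraries, with log2 fold changes of -1.25 ± 0.30 (SE) for Slfn5os and -1.21 ± 0.22 (SE) for Unc45b (limma adjusted p = 0.864 each). The ratio of Slfn5os to Unc45b kept between 0.932 and 1.12 in the 4 libraries. The ratio of Slfn5os to Slfn5 was 0.155 and 0.228 in ECp53KO_170 and ECp53KO_172, against 0.419 and 0.464 in Ctrl_178 and Ctrl_182. In GENCODE M21, 50.7% of the exon bases of Slfn5os overlap exons of Slfn5 and 13.7% overlap exons of Unc45b, each on the opposite strand. The libraries keep no strand, so reads in these overlaps cannot be told apart. Nle1, which encodes a factor of ribosome assembly, lies next to Unc45b and was measured at 11.04 and 6.82 FPKM in ECp53KO_170 and ECp53KO_172, against 5.69 and 3.06 FPKM in Ctrl_178 and Ctrl_182.

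**Figure D3:**
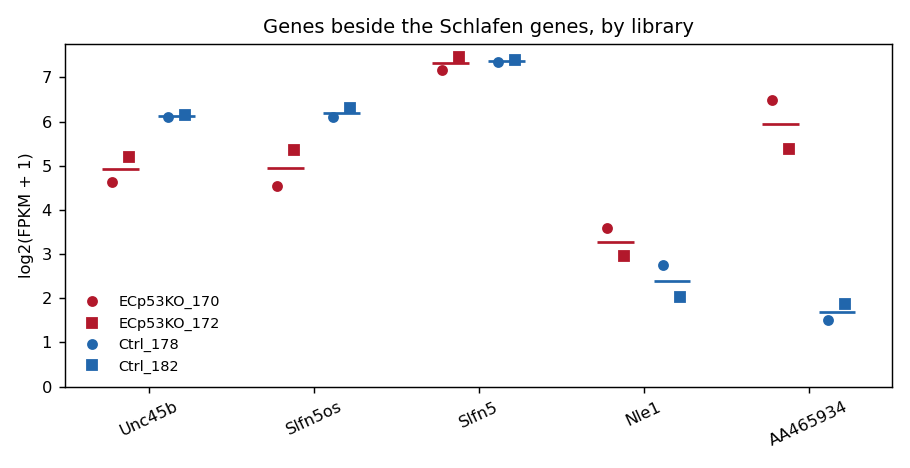
Level of 4 genes beside the cluster and of Slfn5 as log2(FPKM + 1), with ECp53KO libraries in red on the left and Ctrl libraries in blue on the right and bars at the group mean of 2 libraries. Unc45b and Slfn5os are lower and AA465934 is higher in both ECp53KO libraries, while Slfn5 overlaps.

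At the other end, AA465934, a long noncoding RNA gene 4972 bases from Slfn14, was measured at 89.2 and 40.8 FPKM in ECp53KO_170 and ECp53KO_172, against 1.83 and 2.63 FPKM in Ctrl_178 and Ctrl_182. The change on the log2 scale was 4.26 ± 0.39 (SE). Its limma adjusted p was 0.0717 over all tested genes, 0.395 with no filter on low values and 0.00612 in the fit without small RNA loci. AI450353, whose locus overlaps it, was measured at 0.949 and 2.165 FPKM in ECp53KO_170 and ECp53KO_172, against 0.392 and 0.675 FPKM in Ctrl_178 and Ctrl_182. Past these ends, Rad51d, a homologous recombination gene, was at 5.96 ± 0.403 FPKM in ECp53KO and 4.59 ± 0.645 FPKM in Ctrl, without overlap. The adaptor gene Ap2b1 overlapped, at 34.0 ± 2.51 FPKM in ECp53KO and 34.5 ± 3.69 FPKM in Ctrl (SD, n = 2 each for both genes). Others there separated in either direction, with Rffl higher and Lig3 lower in ECp53KO without overlap. Differences between genotypes along the cluster thus ran in both directions: Slfn9 and Slfn8 were lower, Slfn2 was higher, and Slfn5 and Slfn3 overlapped.

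**Figure D4:**
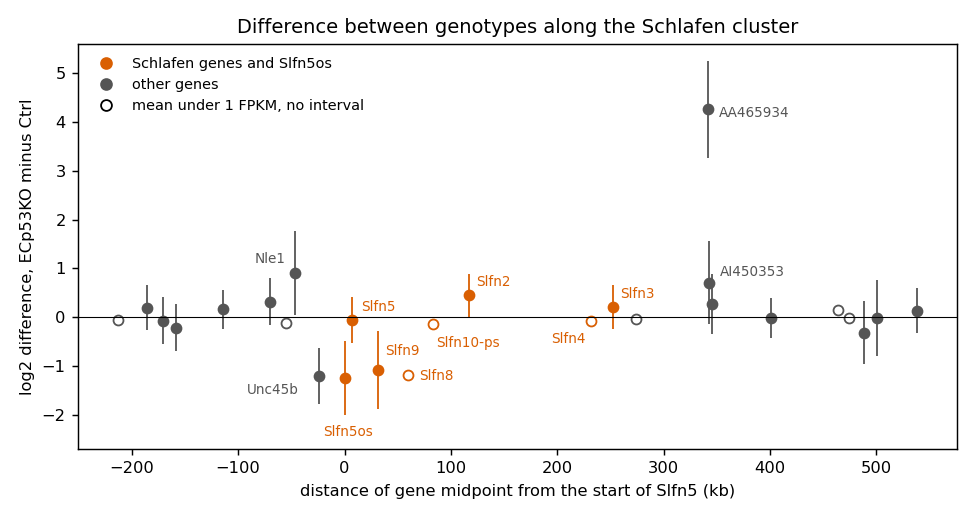
Difference in log2(FPKM + 1), ECp53KO minus Ctrl, against distance of each gene's midpoint from the start of Slfn5 in kb, with 95% limma intervals for genes whose mean reached 1 FPKM. Small RNA loci and genes at 0 are left out. AA465934 stands at 4.26, and Unc45b, Slfn5os, Slfn9 and Slfn8 lie between -1.25 and -1.08.

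Because Schlafen genes are known as interferon-induced, genes of that pathway were read by role. Interferon ligands were at or near 0, with Ifnb1 and Ifng at 0 in both ECp53KO libraries and in Ctrl_178, and at 0.146 and 0.0412 FPKM in Ctrl_182. Of 6 receptors, 5 were tested and 0 passed, with a median log2 fold change of -0.06. Ifngr1, a chain of the interferon gamma receptor, averaged 164 ± 15.9 FPKM in ECp53KO and 171 ± 10.3 FPKM in Ctrl. Il10rb, a shared chain of the interferon lambda and interleukin receptors, averaged 114 ± 9.89 FPKM in ECp53KO and 83.4 ± 11.4 FPKM in Ctrl, and Ifngr2 averaged 20.2 ± 0.225 FPKM in ECp53KO and 24.0 ± 0.388 FPKM in Ctrl. All 10 kinases and transcription factors were tested and 0 passed, with a median of 0.05. Irf7, the amplifier of interferon production, averaged 177.7 ± 36.7 FPKM in ECp53KO and 174 ± 41.3 FPKM in Ctrl. Irf1 averaged 169 ± 54.0 FPKM in ECp53KO and 123 ± 1.01 FPKM in Ctrl. Irf8, a factor of myeloid cells, averaged 2.35 ± 0.212 FPKM in ECp53KO and 4.77 ± 0.929 FPKM in Ctrl (SD, n = 2 each throughout).

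All 4 inhibitors were tested and 0 passed, with a median of 0.06. Socs3 averaged 195 ± 14.4 FPKM in ECp53KO and 207 ± 27.1 FPKM in Ctrl, and Usp18 36.1 ± 4.53 FPKM in ECp53KO and 31.6 ± 4.03 FPKM in Ctrl. Of 46 induced effector genes, 44 were tested, with a median of 0.13, and 1 passed. This was Xaf1, which lies on chromosome 11 as the Schlafen genes do, at 136 ± 3.06 FPKM in ECp53KO and 31.8 ± 0.0236 FPKM in Ctrl (limma adjusted p = 0.0251), a call that was lost on leaving out any 1 library and held on leaving out each of them in the fit without small RNA loci. Ly6e, the most abundant of them, averaged 1405 ± 134 FPKM in ECp53KO and 1222 ± 148 FPKM in Ctrl, and Bst2, which tethers budding virus, 611 ± 44.2 FPKM in ECp53KO and 553 ± 156 FPKM in Ctrl. Ifit3b averaged 12.3 ± 1.38 FPKM in ECp53KO and 8.60 ± 2.22 FPKM in Ctrl. Over the 63 tested genes of all roles, the median log2 fold change was 0.11, beside 0.01 over all tested genes. Of these genes 42 were positive and 21 negative, and 1 passed, where 0.115% of all tested genes did. An unadjusted limma p under 0.05 was found for 2 of them (Xaf1 and Irf8), and for 4.78% of all tested genes. Without Xaf1 the range of log2 fold changes was -0.78 to 0.49, and the value of Slfn9 lies below it. That position was not tested, and Slfn9 was among the tested genes only through its Ctrl level.

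**Figure D5:**
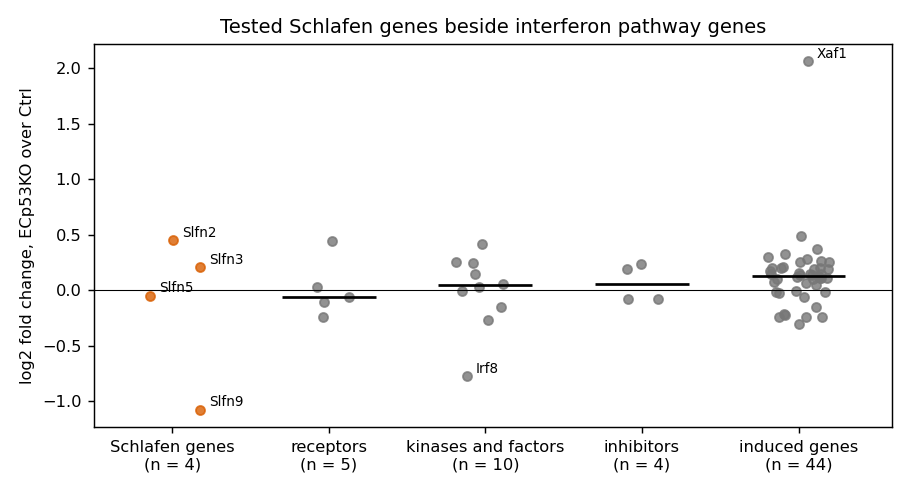
Log2 fold change on the log2(FPKM + 1) scale, ECp53KO over Ctrl, of the 4 tested Schlafen genes and of tested interferon pathway genes by role, with black bars at the median of each role. Most pathway genes lie near 0, with Xaf1 at 2.06 above them and Slfn9 at -1.08 and Irf8 at -0.78 below them.

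As SLFN11 of human cells acts at stressed replication forks, genes of the replication checkpoint and of the replicative helicase were read as well. Of 14, 13 were tested and 0 passed, where 0.115% of all tested genes did. There were 6 positive and 7 negative, with a median of -0.01. An unadjusted limma p under 0.05 was found for 1 of them (Wee1), and for 4.78% of all tested genes. The largest absolute values were those of Wee1, a kinase that restrains entry into mitosis, at 3.88 ± 0.477 FPKM in ECp53KO and 6.09 ± 0.00486 FPKM in Ctrl, and of Cdc45, a part of the helicase, at 1.56 ± 0.227 FPKM in ECp53KO and 2.18 ± 0.987 FPKM in Ctrl (SD, n = 2 each).

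For each tested member, the 3 genes with the most alike profile over the 4 libraries were sought among 11099 genes, by the root mean square difference of centred log2(FPKM + 1). For Slfn5 these were Snrnp200, Erbb2ip and Iigp1, the last of them an interferon-induced GTPase, at differences of 0.01 each. For Slfn2 they were Klhdc1, Tbl3 and Amd2, at 0.02 to 0.04. For Slfn3 they were Dtwd2, Rybp and Ccdc14, at 0.01 to 0.02. For Slfn9 they were Iqgap3, the mitotic kinase gene Plk1 and the cell cycle factor gene E2f1, at 0.03 to 0.06. Plk1 was measured at 1.04 ± 0.256 FPKM in ECp53KO and 3.27 ± 1.19 FPKM in Ctrl (SD, n = 2 each). With 4 libraries in 2 groups, these distances are a description only.

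Schlafen genes are also expressed in leukocytes, so their markers were read in the same libraries. In bulk samples, fewer cells of a type and less RNA per cell cannot be told apart. Pan-leukocyte genes, Ptprc (CD45) among them, summed to 0.512 to 2.05 FPKM in ECp53KO and 1.97 to 4.59 FPKM in Ctrl over 5 genes, with 3 at 0 in ECp53KO_172. Cd52, the highest of these, was measured at 0.544 FPKM in ECp53KO_170 and was listed at 0 in ECp53KO_172, against 2.55 and 0.828 FPKM in Ctrl_178 and Ctrl_182. T cell genes summed to 0.215 to 0.618 FPKM in ECp53KO and 0.433 to 0.485 FPKM in Ctrl over 7 measured genes, and Cd3e was at 0 throughout. B cell genes summed to 0.0496 to 1.10 FPKM in ECp53KO and 0.966 to 1.61 FPKM in Ctrl, and NK cell genes to at most 0.624 FPKM, with Ncr1 at 0 throughout. Monocyte and macrophage genes summed to 7.90 to 10.1 FPKM in ECp53KO and 6.90 to 12.5 FPKM in Ctrl, and neutrophil genes to 5.23 to 9.40 FPKM in ECp53KO and 7.12 to 9.07 FPKM in Ctrl. Most leukocyte markers did not separate the genotypes. Lower in both ECp53KO libraries without overlap, as Slfn8 and Slfn9 were, stood 1 of 5 pan-leukocyte genes (Cd52) and 2 of 5 neutrophil genes. So did 1 of 10 monocyte and macrophage genes, and 0 of the T cell and NK cell genes. Higher without overlap were 2 of 10 monocyte and macrophage genes (Csf1r and C1qa). The T cell gene Cd8a and the NK cell gene Gzma were higher as well. Both were near the detection limit, as their whole lists summed to 0.215 and 0.139 FPKM in ECp53KO_172. Over all rows above 0 in a library, 17.2% were lower and 16.3% higher without overlap. The part of leukocytes in the Slfn8 and Slfn9 difference was not tested. Slfn5, Slfn2 and Slfn3 each stood above every one of these sums in every library. Mural cell genes summed to 107 to 128 FPKM in ECp53KO and 69.9 to 90.0 FPKM in Ctrl, and 3 of 6 were higher in ECp53KO without overlap. These and the erythroid genes were higher in ECp53KO as Slfn2 was, and their part in the Slfn2 difference was not tested.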

How the data were processed

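The authors deposited one table of FPKM values with 24346 gene symbols and a column for each of the 4 libraries. The submitters' processing notes name the build mm10 and, without roles, Cufflinks 2.2.1, TopHat2 2.1.0, Trimmomatic 0.36, FastQC 0.11.5 and bcl2fastq 2.17. Per the labels' protocols, libraries were unstranded and poly-A selected and gave paired reads of 51 bases. The sources used here do not give the annotation or any scaling across libraries.

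Values were analysed as log2(FPKM + 1) in the 11332 genes whose mean reached 1 FPKM, with limma 3.58.1 in R 4.3.3 (intensity trend, two-sided, Benjamini-Hochberg over all tested genes, threshold 0.05), without covariates. The fit had 2 residual degrees of freedom, and limma was tested on simulated data. The simulation left out small RNA loci and gave every gene the same spread, so it does not speak for the main fit, which includes those loci. For depth, the commonest value of FPKM times length was found among 477 low genes with a single transcript over 2000 nucleotides, taken as 1 fragment. Positions and promoters are RefSeq's for GRCm38.p6, and transcripts GENCODE M21's. Of the symbols, 23143 matched RefSeq by symbol and 1099 by synonym. Alternatives changed the pseudocount, the filter, the scaling, the shrinkage, small RNA loci and the libraries used. The members, gene lists and tests were chosen with earlier results of these data known. Named genes are the members, their relatives, Trp53, genes within 200 kb, the 3 nearest profiles per member, and in each list those of highest level or largest fold. From the genes within 200 kb, only those described above are named. The separation of single B cell genes is not reported here.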

Additional observations from a re-analysis of the deposited data

How the results depend on the processing

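None of Slfn2, Slfn3, Slfn5 and Slfn9 passed in any of the 15 alternatives. Slfn8 and Slfn4 had a test only with no filter and with a minimum mean of 0.1 FPKM, and did not pass there (limma adjusted p of 0.218 and 0.276 for Slfn8, 0.859 and 0.925 for Slfn4), and Slfn1 could not be tested. Slfn2 kept a positive log2 fold change (0.33 to 0.57), Slfn3 a positive one (0.04 to 0.37) and Slfn9 a negative one (-1.93 to -0.75), with limma adjusted p-values of at least 0.349 for Slfn2, 0.726 for Slfn3 and 0.139 for Slfn9. Slfn5 reversed to 0.0921 without ECp53KO_170, also with small RNA loci left out, and ran from -0.19 to 0.09 when a library was left out. With a pseudocount of 0.1 the difference of Slfn8 was -3.50 and that of Slfn4 -0.36, and rescaled to TPM that of Slfn8 was -1.61, as both settings stretch low values. Leaving out a library gave -1.23 to -1.13 for Slfn8 and -0.14 to -0.03 for Slfn4. In place of 13 genes past the test there were 8 with no filter, 7 without small RNA loci, and 31 to 59 on leaving out a library. Without small RNA loci as well, a combination chosen after seeing the data, leaving out ECp53KO_170 gave 9, ECp53KO_172 21, Ctrl_178 31 and Ctrl_182 26. The 1 interferon gene past the test, Xaf1, was lost (0 genes) with no filter, after rescaling to TPM and on leaving out any library (0 to 0), and the cause was not tested. It was kept (1 gene) on leaving out each library without small RNA loci. Each fit that left out a library had 1 library in a group, which is assumed to vary like the other group. The median of the interferon list ran from -0.02 to 0.24. No paired analysis was possible because no replicate number occurs in both ECp53KO and Ctrl. With 2 libraries a group and about 1 fragment of Slfn8 in each ECp53KO library, depth limits how far its level there can be read.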
